A study of Mus musculus with 16 samples.

Results

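Transcriptional outputs and feedback brakes of the MEK/ERK pathway were followed in PDA30364 tumors treated with gemcitabine (GEM) and agonist anti-CD40 Ab. The set has 10 genes, which are Dusp4, Dusp6, Spry2, Spry4, Spred1, Etv4, Etv5, Phlda1, Ereg and Areg. A gene was measured where at least 1 probe set of the array is annotated to it alone, and 9 of the 10 genes met this, out of 18193 named genes on the array. Areg had no such probe set in the annotation used and has no value here. The 9 genes have 23 probe sets, and for each gene the brightest of them, by its mean on the 16 arrays, gives the values.

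PDA30364 is a line from 1 pancreatic tumor of a genetically engineered mouse, in which an elastase-driven Cre system was combined with induced pancreatitis. Its cells were grafted under the flank skin of C57BL/6-Ly5.1 mice aged 6 to 12 weeks, so the tumors grew outside the pancreas and all come from a single line. The 4 groups of 4 arrays were compared, described as 1 array a tumor from separate mice, though GEM replicates 3 and 4 share an animal number. GEM/anti-CD40 tumors received GEM and a mouse IgG1 agonist antibody to CD40, anti-CD40 tumors the vehicle of GEM and that antibody, and GEM tumors GEM and an isotype control antibody. Control tumors received the vehicle and the isotype control antibody, so every mouse was injected with a solution of each kind. GEM was dosed at 120 mg/kg on day 1, day 5 and day 12 of treatment, the antibodies on day 3, day 4, day 6 and day 14, and tumors were taken on day 22 or 23 after grafting. Treatment began, in general, 1 week after grafting, so days of treatment and days after grafting are counted from different starts. The MEKi arms of the study were not analysed here. Values are log2 intensities from RMA, a method that corrects background, normalizes between arrays and sums up the probes of a probe set, and a difference of 1 is a 2-fold difference.

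ERK, the last kinase of the RAS-RAF-MEK-ERK cascade, switches on genes that act back on the cascade. Among them, Dusp4 and Dusp6 encode phosphatases that remove the activating phosphates from ERK, Spry2, Spry4 and Spred1 encode inhibitors that act between receptor and RAF, Etv4 and Etv5 encode ETS-family transcription factors, and Ereg and Areg encode ligands of EGFR that can restart the pathway from outside. The cascade is commonly active in pancreatic cancer, and the mRNA of these genes is widely used as a readout of ERK activity.

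RNA came from pieces of whole tumor, so a lower value can mean fewer cells of a type or less RNA per cell, and these cannot be told apart. Epithelial genes such as Krt8 and Krt18 were high on every array, with a mean of the 10 tumor epithelium genes of at most 11.83 on the log2 scale and, in all but anti-CD40 replicate 3, at least 11.27, whereas the 4 measured acinar genes averaged 5.75 to 6.15. The mean of 8 keratinocyte genes was 8.70 in control replicate 2 and 6.80 in anti-CD40 replicate 2, against 4.68 to 5.46 on the other arrays. The mean of 10 skeletal muscle genes was 12.43 in GEM/anti-CD40 replicate 4, against 4.47 to 7.92 elsewhere. These 3 arrays were left out in an alternative. The mean of 6 T cell genes was 5.68 to 7.10 in GEM/anti-CD40, 5.95 to 7.29 in anti-CD40, 5.21 to 5.47 in GEM and 5.38 to 6.33 in control tumors, and that of 8 endothelial genes 6.73 to 7.64, 6.62 to 7.40, 6.41 to 6.87 and 6.48 to 6.89 in the same order. The mean of 7 macrophage genes was 8.50 to 9.37, 8.43 to 9.04, 8.06 to 8.79 and 8.37 to 8.88, and that of 5 granulocytic genes 7.44 to 8.21, 7.004 to 7.52, 6.89 to 7.51 and 6.65 to 7.52, again in that order. The part of such cells in the values below was not tested. GEM replicates 3 and 4 share an animal number in their labels, though the groups are described as separate mice, and averaging them is another alternative. P-values measure only the spread between these tumors.

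No measured gene of the set passed an adjusted p of 0.05 in any of the 5 pairwise comparisons or in the interaction. Over the 45 gene-by-comparison results, fold changes lay between 0.767 and 1.40. The tests on all probe sets called few or none as well. In GEM/anti-CD40 against control tumors 0.0178% of the 45037 probe sets passed, and 0% passed in anti-CD40 against control, GEM against control, GEM/anti-CD40 against GEM, GEM/anti-CD40 against anti-CD40 and the interaction. In 5 of the 45 results the groups did not overlap, where 2.63% to 6.16% of all probe sets had none, depending on the comparison. An unadjusted p under 0.05 in limma was found in 7 of the 45, against 4.6% to 11.6% of all probe sets. The 5 comparisons reuse the same 4 groups, so the 45 results are not independent. How these counts stand against all probe sets is given comparison by comparison below.

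**Figure D1:**
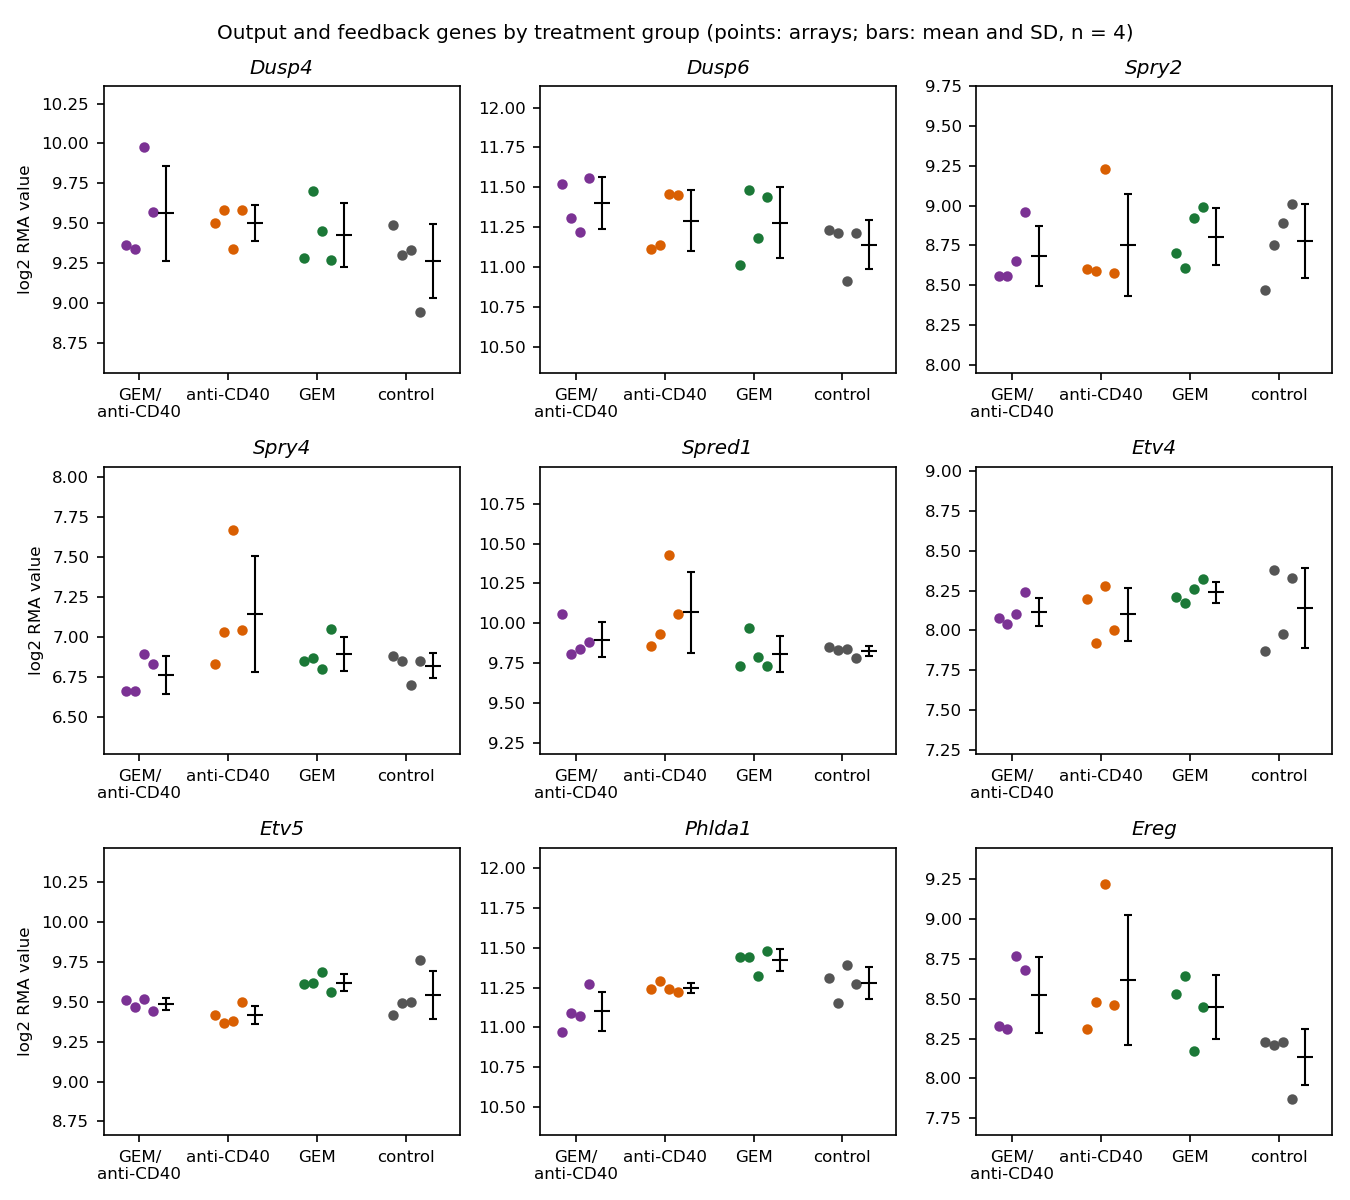
Log2 RMA value of each gene on the 16 arrays, by treatment group (points are arrays, black bars mean and SD of 4 arrays). All panels span 1.8 log2 units; Ereg shows the widest gap to control, and 1 anti-CD40 array is high for Spry2, Spry4, Spred1 and Ereg.

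Dusp6, the phosphatase specific to ERK in the cytoplasm, had log2 values of 11.52, 11.31, 11.22 and 11.56 in GEM/anti-CD40 tumors, 11.11, 11.14, 11.46 and 11.45 in anti-CD40 tumors, 11.01, 11.48, 11.18 and 11.44 in GEM tumors, and 11.23, 11.21, 10.91 and 11.21 in control tumors. Every GEM/anti-CD40 tumor but replicate 3 was above the highest control, control replicate 3 was the lowest of all arrays, and all groups overlapped. The mean in GEM/anti-CD40 tumors was 11.40 ± 0.16 against 11.14 ± 0.15 in control tumors (SD, n = 4 each), a log2 difference of 0.26 ± 0.10 (SE, adjusted p = 0.497 in limma, 95% interval 0.03 to 0.50). Anti-CD40 alone gave 0.15 ± 0.11 and GEM alone 0.14 ± 0.12 against control, so each interval included 0, and without control replicate 3 these 2 differences were 0.07 and 0.06.

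Dusp4, a nuclear phosphatase that acts on ERK and also on related kinases, had 9.36, 9.34, 9.98 and 9.57 in GEM/anti-CD40 tumors, 9.50, 9.58, 9.34 and 9.58 in anti-CD40 tumors, 9.28, 9.70, 9.45 and 9.27 in GEM tumors, and 9.49, 9.30, 9.33 and 8.94 in control tumors. GEM/anti-CD40 replicate 3 was the highest array and control replicate 4 the lowest, and the groups overlapped throughout. The difference from control was 0.30 ± 0.16 in GEM/anti-CD40 tumors (adjusted p = 0.588), 0.24 ± 0.12 in anti-CD40 tumors (adjusted p = 0.811) and 0.16 ± 0.13 in GEM tumors (adjusted p = 0.889). All 3 intervals spanned 0. Without GEM/anti-CD40 replicate 3 the first of these differences was 0.16, and without control replicate 4 the other 2 were 0.13 and 0.05.

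Spry2, an adaptor-binding inhibitor of receptor signaling, had 8.56, 8.56, 8.65 and 8.96 in GEM/anti-CD40 tumors, 8.60, 8.59, 9.23 and 8.58 in anti-CD40 tumors, 8.70, 8.61, 8.92 and 8.99 in GEM tumors, and 8.47, 8.75, 8.89 and 9.01 in control tumors. In the anti-CD40 group replicate 3 stood well above the others, and all groups overlapped. The difference from control was -0.10 ± 0.13 in GEM/anti-CD40 tumors, -0.03 ± 0.17 in anti-CD40 tumors and 0.03 ± 0.13 in GEM tumors. The second Spry2 probe set, with values of 4.63 to 5.15, gave -0.12, 0.05 and 0.03 in the same comparisons, so the direction under anti-CD40 differed between probe sets.

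Spry4, a relative of Spry2, had 6.66, 6.66, 6.89 and 6.83 in GEM/anti-CD40 tumors, 6.83, 7.03, 7.67 and 7.04 in anti-CD40 tumors, 6.85, 6.87, 6.80 and 7.05 in GEM tumors, and 6.88, 6.85, 6.70 and 6.85 in control tumors. Anti-CD40 replicate 3 was again the highest array, and anti-CD40 replicate 1 lay among the controls. The log2 difference from control was 0.32 ± 0.16 in anti-CD40 tumors (adjusted p = 0.810) and -0.06 ± 0.08 in GEM/anti-CD40 tumors (adjusted p = 0.820). Without anti-CD40 replicate 3 the first of these was 0.15. The other 3 probe sets of Spry4 gave -0.01, 0.10 and -0.01 for anti-CD40 against control, so the larger value comes from 1 of 4 probe sets.

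Spred1, a membrane inhibitor of RAS and RAF, had 10.06, 9.81, 9.84 and 9.88 in GEM/anti-CD40 tumors, 9.86, 9.93, 10.43 and 10.06 in anti-CD40 tumors, 9.73, 9.97, 9.79 and 9.73 in GEM tumors, and 9.85, 9.83, 9.84 and 9.78 in control tumors. The controls varied least, and all anti-CD40 tumors lay above all controls, replicate 1 only just. The mean was 10.07 ± 0.25 in anti-CD40 tumors and 9.83 ± 0.03 in control tumors (SD, n = 4 each), a difference of 0.25 ± 0.12 (adjusted p = 0.807), or 0.13 without anti-CD40 replicate 3. All 8 Spred1 probe sets gave a positive difference in that comparison, between 0.03 and 0.25, though the groups overlapped on all but the brightest. They measure the same tumors and are not separate evidence.

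Promoter windows from RefSeq (GRCm38.p6), 250 bases before and 50 from the annotated start on, were held by the sequence table for 5 of the genes. Those of Spry2, Dusp6 and Spred1 are shown because they belong to the feedback brakes of the set, with capitals marking each GGAA, the core that ETS factors such as Etv4 and Etv5 bind, or its complement TTCC, and the longer ETS motif CCGGAA.
Spry2 promoter, chr14:105896770-105897069, minus strand: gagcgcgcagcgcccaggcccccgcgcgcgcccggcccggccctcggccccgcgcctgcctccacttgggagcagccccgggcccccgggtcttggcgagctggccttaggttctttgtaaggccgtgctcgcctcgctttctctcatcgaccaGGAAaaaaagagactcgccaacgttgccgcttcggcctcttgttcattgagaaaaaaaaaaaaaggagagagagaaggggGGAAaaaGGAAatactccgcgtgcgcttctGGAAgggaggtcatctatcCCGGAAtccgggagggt
Dusp6 promoter, chr10:99262981-99263280, plus strand: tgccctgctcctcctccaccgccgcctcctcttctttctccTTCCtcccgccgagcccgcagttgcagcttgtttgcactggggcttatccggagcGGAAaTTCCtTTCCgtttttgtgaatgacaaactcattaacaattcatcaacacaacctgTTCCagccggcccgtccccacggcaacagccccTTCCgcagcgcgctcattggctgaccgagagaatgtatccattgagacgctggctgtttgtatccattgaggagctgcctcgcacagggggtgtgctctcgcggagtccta
Spred1 promoter, chr2:117120821-117121120, plus strand: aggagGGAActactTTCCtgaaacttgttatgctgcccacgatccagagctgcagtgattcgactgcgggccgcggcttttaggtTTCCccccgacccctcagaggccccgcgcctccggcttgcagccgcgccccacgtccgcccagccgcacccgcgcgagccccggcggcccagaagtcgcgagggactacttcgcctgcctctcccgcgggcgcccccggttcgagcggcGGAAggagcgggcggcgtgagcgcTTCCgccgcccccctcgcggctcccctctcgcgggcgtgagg
The Spry2 window held 1 CCGGAA, at bases 34 to 39 counted from the start as base 1, and 5 GGAA in all, of which 1 is within that motif. The Dusp6 window held 6 GGAA and the Spred1 window 5, counting both strands, and neither held CCGGAA. No TGANTCA, the AP-1 motif that FOS and JUN proteins bind, and no CArG box of SRF was found in these 3 windows. Among 32851 promoter windows of the same length, 14.9% held CCGGAA, 96.0% GGAA, 7.81% TGANTCA and 1.63% a CArG box on either strand. A match is a run of letters and says nothing of binding.

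Etv5 had 9.51, 9.47, 9.52 and 9.44 in GEM/anti-CD40 tumors, 9.42, 9.37, 9.38 and 9.50 in anti-CD40 tumors, 9.61, 9.62, 9.69 and 9.56 in GEM tumors, and 9.42, 9.49, 9.50 and 9.76 in control tumors. All GEM/anti-CD40 tumors lay below all GEM tumors, while control replicate 4 was the highest array. The mean was 9.48 ± 0.04 in GEM/anti-CD40 tumors and 9.62 ± 0.05 in GEM tumors (SD, n = 4 each), a log2 difference of -0.13 ± 0.05 (adjusted p = 0.394 in limma, exact two-sided permutation p = 0.0286 unadjusted, which is the smallest that 4 against 4 can give). Both p-values take GEM replicates 3 and 4, which share an animal number, as separate mice. The 3 Etv5 probe sets gave -0.15 to -0.12 for this pair of groups, but only the brightest kept the groups apart. On the others the highest GEM/anti-CD40 tumor was at 7.25 and 6.92, and the lowest GEM tumor at 7.21 and 6.89. For anti-CD40 against control the 3 probe sets gave -0.17 to -0.13, with overlapping groups in each, and without control replicate 4 the first probe set gave -0.05.

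Etv4 had 8.08, 8.04, 8.10 and 8.24 in GEM/anti-CD40 tumors, 8.20, 7.92, 8.28 and 8.00 in anti-CD40 tumors, 8.21, 8.17, 8.26 and 8.32 in GEM tumors, and 7.87, 8.38, 7.98 and 8.33 in control tumors. Controls held both the lowest and the highest array, and every other group lay within their range. The difference from control was -0.03 ± 0.12 in GEM/anti-CD40 tumors, -0.04 ± 0.13 in anti-CD40 tumors and 0.10 ± 0.12 in GEM tumors. GEM/anti-CD40 against GEM tumors gave -0.12 ± 0.06 (adjusted p = 0.507), and -0.24 with the second Etv4 probe set.

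Phlda1, an ERK-induced gene for a pleckstrin-homology-like protein, had 10.97, 11.09, 11.07 and 11.27 in GEM/anti-CD40 tumors, 11.24, 11.29, 11.24 and 11.22 in anti-CD40 tumors, 11.44, 11.44, 11.32 and 11.48 in GEM tumors, and 11.31, 11.15, 11.39 and 11.27 in control tumors. The order of the group means was GEM, control, anti-CD40 and GEM/anti-CD40, and every GEM/anti-CD40 tumor lay below every GEM tumor. GEM/anti-CD40 tumors averaged 11.10 ± 0.12 and GEM tumors 11.42 ± 0.07 (SD, n = 4 each), a fold of 0.801 and a log2 difference of -0.32 ± 0.08 (95% interval -0.49 to -0.15, adjusted p = 0.218 in limma, exact two-sided permutation p = 0.0286 unadjusted). This was the smallest adjusted p of the set in any comparison. Between GEM/anti-CD40 and GEM tumors all 7 macrophage genes (median 0.69) and all 5 granulocytic genes (median 0.69) had a difference above 0. So had 5 of 6 T cell genes (median 1.20), all 8 endothelial genes (median 0.47) and all 10 skeletal muscle genes (median 1.365). Of the 10 tumor epithelium genes 4 were above and 6 below 0. None of these genes passed the adjusted threshold, and their part in the Phlda1 and Etv5 values was not tested. Muscle genes were highest in GEM/anti-CD40 replicate 4, and without that array the Phlda1 difference was -0.38. Against control the difference was -0.18 ± 0.08 in GEM/anti-CD40 tumors (adjusted p = 0.533), -0.03 ± 0.07 in anti-CD40 tumors (adjusted p = 0.947) and 0.14 ± 0.07 in GEM tumors (adjusted p = 0.852).

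Ereg, the gene of the EGFR ligand epiregulin, had 8.33, 8.31, 8.77 and 8.68 in GEM/anti-CD40 tumors, 8.31, 8.48, 9.22 and 8.46 in anti-CD40 tumors, 8.53, 8.64, 8.17 and 8.45 in GEM tumors, and 8.23, 8.21, 8.23 and 7.87 in control tumors. All GEM/anti-CD40 and all anti-CD40 tumors lay above all controls, and 1 GEM tumor, replicate 3, lay within the controls. Control replicate 4 stood below the other controls. Means were 8.52 ± 0.24 in GEM/anti-CD40 tumors, 8.62 ± 0.41 in anti-CD40 tumors, 8.45 ± 0.20 in GEM tumors and 8.14 ± 0.18 in control tumors (SD, n = 4 each). The difference from control was 0.39 ± 0.13 in GEM/anti-CD40 tumors (95% interval 0.09 to 0.68, adjusted p = 0.465 in limma, exact permutation p = 0.0286 unadjusted), 0.48 ± 0.19 in anti-CD40 tumors (0.06 to 0.90, adjusted p = 0.807, exact permutation p = 0.0286 unadjusted) and 0.31 ± 0.12 in GEM tumors (0.05 to 0.58, adjusted p = 0.840). Without anti-CD40 replicate 3 the difference in anti-CD40 tumors was 0.28. Leaving out control replicate 4 gave 0.30 in GEM/anti-CD40 tumors and 0.22 in GEM tumors. These 3 comparisons share the control tumors.

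Across the set, GEM/anti-CD40 against control gave 2 of 9 genes with an unadjusted p under 0.05, Dusp6 and Ereg, where 9.58% of all probe sets had one, and 1 of 9, Ereg, without overlap of the groups, where 5.1% of all probe sets had none. The median log2 difference over the 9 genes was -0.03, with 4 above 0, against -0.02 over all probe sets, and 0.055 without control replicate 2. Anti-CD40 against control gave 1 of 9 with an unadjusted p under 0.05, Ereg, against 6.08% of all probe sets, and 2 of 9 without overlap, Spred1 (only on its brightest probe set) and Ereg, against 3.03%. The median was 0.15, against -0.01 over all probe sets, and 0.07 without control replicate 3. GEM against control gave 1 of 9, Ereg, against 5.72%, and none without overlap, against 3.21%, with 8 of the 9 differences above 0, against 49% of all probe sets. The median was 0.10, against 0.00 over all probe sets, and 0.06 without control replicate 3.

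For the pairs of treated groups, GEM/anti-CD40 against GEM gave 2 of 9 with an unadjusted p under 0.05, Etv5 and Phlda1, against 11.6% of all probe sets, and these 2 were also without overlap (Etv5 only on its brightest probe set), against 6.16%. The median was -0.12, against -0.03 over all probe sets, and -0.06 without GEM replicate 4. GEM/anti-CD40 against anti-CD40 gave 1 of 9, Spry4 at -0.38 ± 0.16 (adjusted p = 0.937), against 4.6%, and none without overlap, against 2.63%. Without anti-CD40 replicate 3 that Spry4 difference was -0.21, and the other 3 Spry4 probe sets gave -0.07, -0.21 and -0.07 on all arrays. With 4 arrays a group, the 95% intervals of the 9 genes reached from -0.75 to 0.90 over the 5 comparisons. The SE was 0.05 to 0.08 for Etv5 and 0.12 to 0.20 for Ereg.

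**Figure D2:**
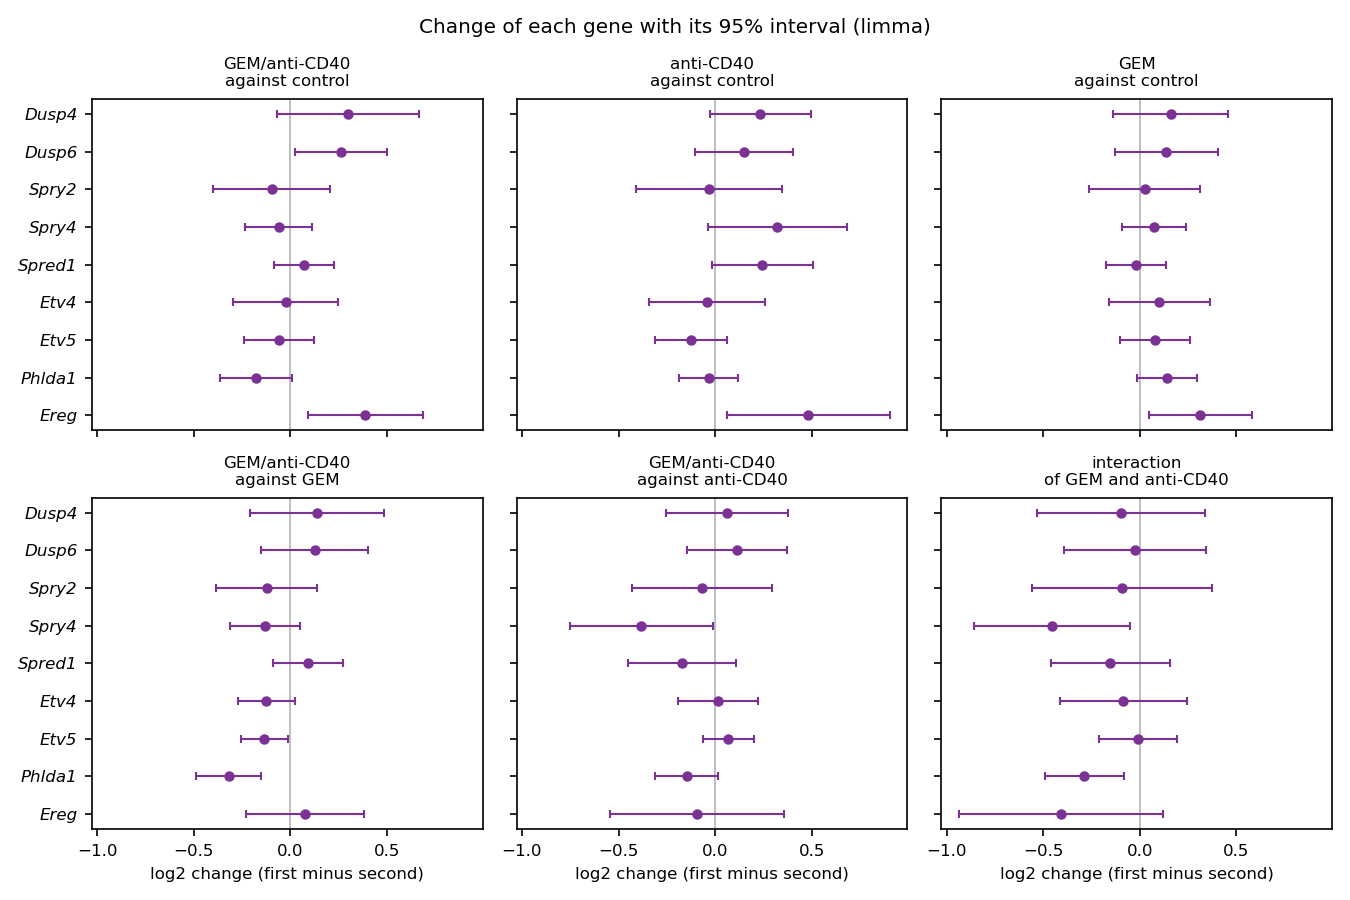
Log2 change of each gene with its 95% interval from limma, for the 5 pairwise comparisons (first group minus second) and the interaction. Intervals are not adjusted for the number of tests. Those of 7 of the 45 pairwise results leave out 0, led by Phlda1 in GEM/anti-CD40 against GEM tumors. Of all probe sets, 4.6% to 11.6% had an unadjusted p under 0.05, depending on the comparison.

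The interaction asks whether the change with anti-CD40 was the same with and without GEM, as the difference of GEM/anti-CD40 minus GEM and anti-CD40 minus control. Its estimate was below 0 for all 9 genes, between -0.46 for Spry4 and -0.01 for Etv5 (median -0.10), though those of Dusp4, Dusp6, Spry2, Etv4 and Etv5 turned above 0 with 1 array or another left out, and 51.9% of all named genes had one above 0. None passed, with adjusted p between 0.890 and 0.995. Spry4 at -0.46 ± 0.19 and Phlda1 at -0.29 ± 0.10 had an unadjusted p under 0.05, where 5.24% of all probe sets did. These estimates are those of the brightest probe set of each gene. All 4 Spry4 probe sets were below 0, but at -0.46 to -0.04 (median -0.10). Above 0 were 2 of the 3 Etv5 and 1 of the 8 Spred1 probe sets, and none of those of Spry2 or Etv4. The genes share the same 16 tumors, and without anti-CD40 replicate 3 the median was -0.03, the estimate for Spry2 0.07, that for Spred1 -0.03, that for Ereg -0.21 and that for Spry4 -0.28. For Phlda1 the difference with anti-CD40 was -0.32 in the presence of GEM and -0.03 in its absence.

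Anti-CD40 replicate 3 was the array on which the set stood apart most. It held the highest value of all 16 arrays for 4 of the 9 genes, Spry2, Spry4, Spred1 and Ereg, for 13 of the 23 probe sets and for 7 of the 8 Spred1 probe sets. Over all named genes this array was the highest for 10.6% and the lowest for 12.2%. Its tumor epithelium genes were at the lowest mean of any array, below the 11.27 to 11.83 of the others, while its keratinocyte genes, at 4.68, and its muscle genes, at 4.47, were the lowest of all. Its fibroblast genes were at 10.45 and its T cell genes at 5.95. Whether its cell make-up had a part in the high values was not tested.

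**Figure D3:**
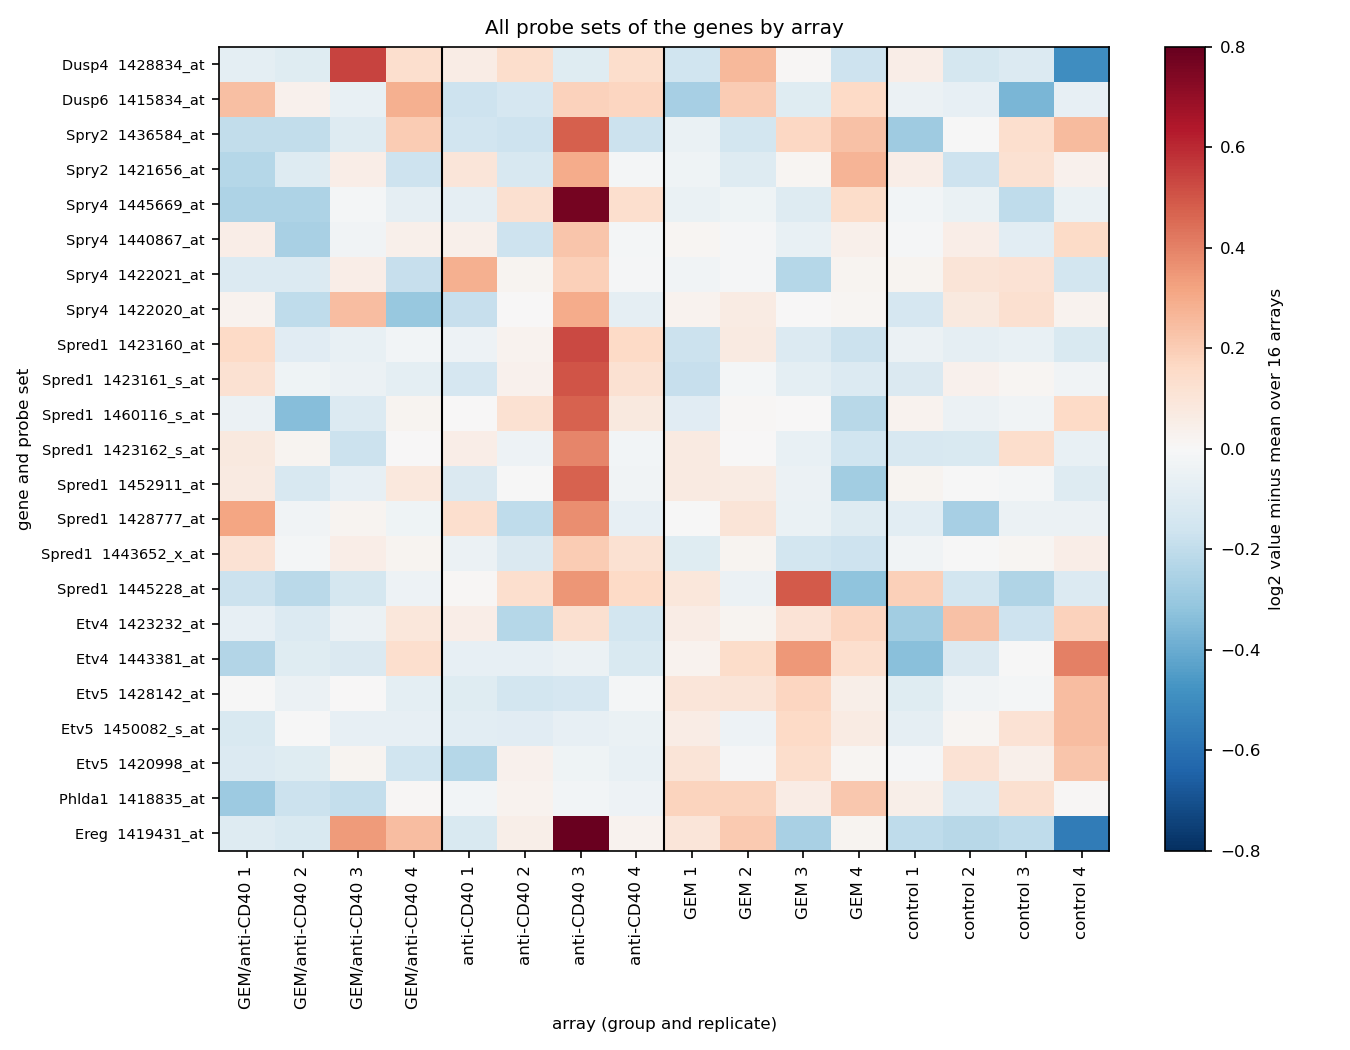
Log2 value minus the mean over the 16 arrays for all 23 probe sets (rows, by gene and probe set) on each array (columns, by group and replicate). The column of anti-CD40 replicate 3 holds the highest value for 13 of the 23 probe sets.

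Between tumors, the 9 genes were compared in pairs. Of 36 pairs, none passed after Benjamini-Hochberg adjustment by Pearson's r over the 16 arrays (6 had an unadjusted permutation p under 0.05). An r above 0 was found in 25, and the median r was 0.17. Without anti-CD40 replicate 3, 1 pair passed. With 16 arrays, pairs that did not pass can still vary together. Spry2 and Etv4 were the pair with the smallest p, with r = 0.65 (permutation p = 0.00619, adjusted p = 0.158) and rho = 0.78 (p = 0.00067, adjusted p = 0.0241), the only pair past the threshold by rho. Their r was 0.61 without the 2 arrays farthest from the Spry2 median and 0.66 on deviations from the group means (adjusted p = 0.226).

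Spry4 and Ereg had r = 0.70 (p = 0.0096, adjusted p = 0.158) and rho = 0.48 (adjusted p = 0.292), and r was 0.28 without the 2 farthest arrays, anti-CD40 replicate 3 and GEM replicate 4. Spry4 and Spred1 had r = 0.71 (p = 0.0292, adjusted p = 0.240), rho = 0.20 (adjusted p = 0.651) and an r of 0.02 without anti-CD40 replicate 3. Spred1 and Ereg had r = 0.66 (p = 0.0132, adjusted p = 0.158), rho = 0.47 (adjusted p = 0.292) and an r of 0.24 without that array. These 3 relations rest on that single tumor. Leaving out that array raised the r of Dusp4 and Ereg, with r = 0.49 (p = 0.0578, adjusted p = 0.294) and rho = 0.49 (adjusted p = 0.292) on all arrays, 0.79 without anti-CD40 replicate 3, and 0.11 without GEM/anti-CD40 replicate 3 and control replicate 4, the 2 farthest for Dusp4. The phosphatases Dusp4 and Dusp6 are not among the 6 pairs with an unadjusted p under 0.05.

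**Figure D4:**
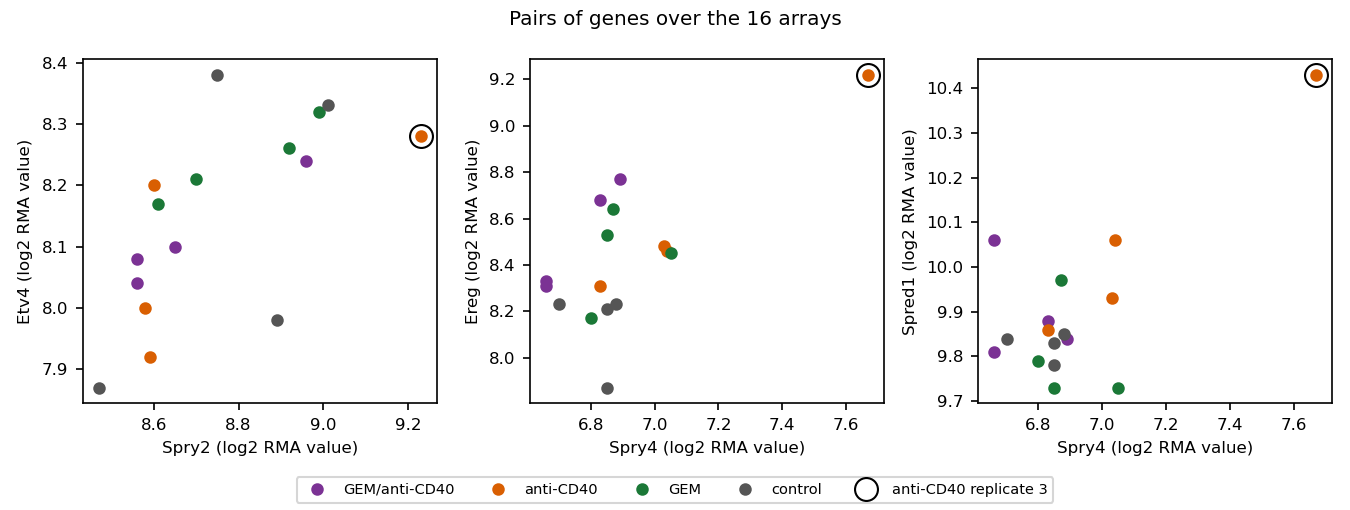
Log2 values of 3 pairs of genes over the 16 arrays, coloured by group, with anti-CD40 replicate 3 ringed. Etv4 tends to be high where Spry2 is high (r = 0.65), whereas in the 2 pairs with Spry4 the ringed array stands alone at the upper right.

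Of all other named genes, those whose pattern over the 16 arrays came closest to a gene of the set, by Pearson's r and as a description, were Lonrf1, Ivl and Qpctl for Dusp4 (r = 0.87, 0.87 and 0.85), Clasp2, Cdk17 and Pde7b for Dusp6 (0.91, 0.87 and 0.85) and Rint1, Arap3 and Cnih1 for Spry2 (0.93, 0.88 and 0.88). For Spry4 they were Mrps2, Usp14 and Gpsm1 (0.92, 0.90 and 0.88), and for Spred1 Igha, Jchain and Ppig (0.88 each). Without anti-CD40 replicate 3 the r with Spry4 was 0.69, 0.70 and 0.69, and that of Ppig with Spred1 0.54. Igha and Jchain encode the IgA heavy chain and the chain that joins IgA units and so mark plasma cells. They were at 7.31 and 5.57 in anti-CD40 replicate 3, the highest of all arrays. Jchain was low throughout, at 3.28 to 5.57, below the lowest median of an array, 5.6. The r of Igha and Jchain with Spred1, without anti-CD40 replicate 3, was 0.61 and 0.68. For Etv4 the closest were Rab44, Sort1 and Senp3 (0.81, 0.80 and 0.79), for Etv5 Cdkn2aipnl, Traf7 and Zranb3 (0.85, 0.84 and 0.83), for Phlda1 Pgap1, Stard4 and Nmur1 (0.80, 0.79 and 0.79), and for Ereg Mtpn, Mtpap and Lratd1 (0.87, 0.86 and 0.85). Each is among the closest of 18193 genes over 16 arrays.

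The rest of the pathway gave the surroundings of these genes. No gene of the 5 lists, 60 genes with a value, passed an adjusted p of 0.05 in any comparison, and 15 of 60 had an unadjusted p under 0.05 in GEM/anti-CD40 against control, 12 of them above 0, where 9.58% of all probe sets had one. Of the 18193 named genes, 1066 had such a p with a difference above 0 and 974 below 0. Of the 60, 13 were above and 4 below 0 in GEM/anti-CD40 against GEM, where 11.6% of all probe sets had one. These counts were 5 and 2 in anti-CD40 against control (6.08%) and 5 and 1 in GEM against control (5.72%). In GEM/anti-CD40 against anti-CD40 they were 2 and 1 (4.6%), and in the interaction 2 and 2 (5.24%). The 6 EGFR family ligands beside Ereg had a median log2 difference from control of 0.19 in GEM/anti-CD40 tumors, 0.16 in anti-CD40 tumors and 0.08 in GEM tumors, and the 19 other transcriptional outputs 0.25, 0.24 and 0.05 in the same order, where the medians over all named genes were -0.02, -0.02 and 0.00. For the 9 receptors the medians were -0.02, -0.10 and 0.00, for the 11 measured cascade genes 0.05, 0.01 and -0.01, and for the 15 other brakes 0.13, 0.05 and 0.04. Ligands and other outputs were thus the lists farthest above 0 in tumors given anti-CD40, with no gene called. Anti-CD40 replicate 3 had the highest mean of any array in both lists, 7.29 for ligands and 9.21 for other outputs. The other anti-CD40 tumors were at 6.85 to 6.97 and 8.88 to 9.03. GEM/anti-CD40 tumors were at 6.83 to 7.09 and 8.94 to 9.11. Controls, at 6.75 to 6.91 and 8.69 to 8.97, overlapped both groups.

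**Figure D5:**
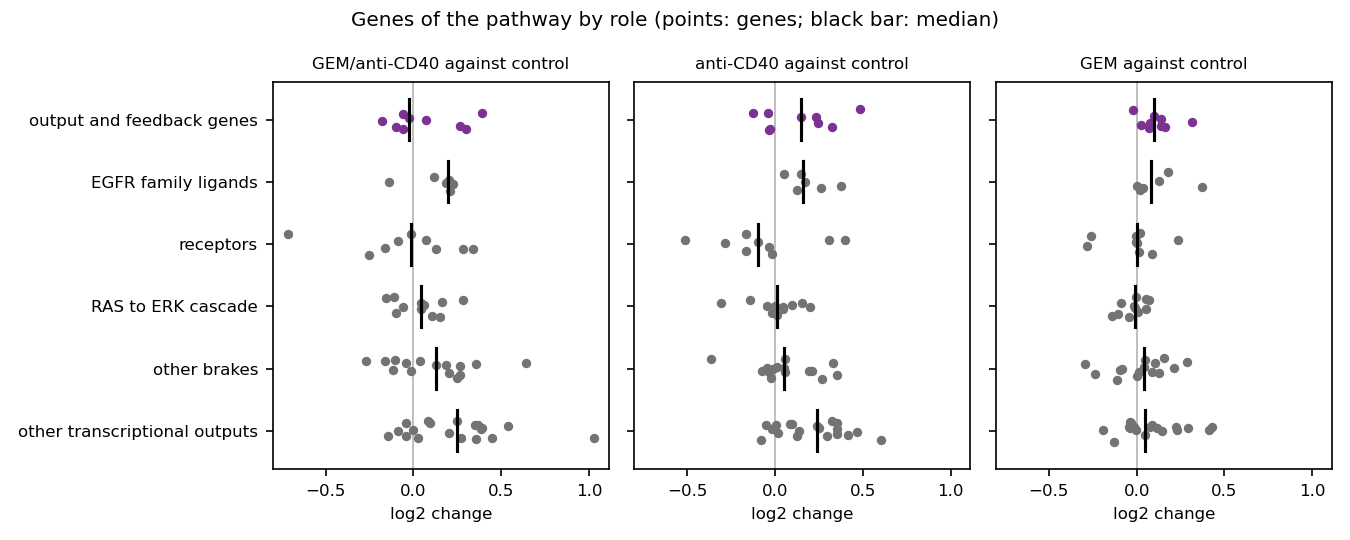
Log2 change of the genes of each list against control in GEM/anti-CD40, anti-CD40 and GEM tumors (points are genes, black bars medians). The bars of the other transcriptional outputs stand at 0.25, 0.24 and 0.05, and those of the output and feedback genes at -0.03, 0.15 and 0.10.

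By name, the smallest p in GEM/anti-CD40 against control belonged to Fosl1, an AP-1 subunit made under sustained ERK activity, with 9.61, 9.51, 9.40 and 9.40 in GEM/anti-CD40 tumors and 8.88, 9.12, 9.16 and 9.19 in control tumors (difference 0.39 ± 0.09, adjusted p = 0.372). Its groups did not overlap. Lif, a cytokine gene, differed by 0.38 ± 0.09 (adjusted p = 0.402) and the receptor gene Fgfr3 by -0.71 ± 0.19 (adjusted p = 0.410). The brake Spry1 differed by -0.27 ± 0.08 (adjusted p = 0.444), and none of these 3 overlapped either. These genes were picked by their p, so the lack of overlap is not separate evidence. Of the 60 list genes, 8 lay wholly above and 3 wholly below control, where 5.1% of all probe sets had no overlap.

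In anti-CD40 against control tumors the genes with the smallest p were Plaur, the urokinase receptor gene, at 0.24 ± 0.08 and Map2k1, which encodes MEK1, at 0.20 ± 0.07, and in the other direction Spry1 at -0.36 ± 0.15 and Araf, a RAF kinase gene, at -0.31 ± 0.13 (adjusted p = 0.807 each). Without anti-CD40 replicate 3 the Spry1 difference was -0.20 and the Araf difference -0.19. In GEM against control tumors they were Errfi1, an inhibitor of EGFR, at 0.28 ± 0.08 (adjusted p = 0.757), Lrig1, another brake on EGFR-family receptors, at 0.21 ± 0.07 (adjusted p = 0.786), the receptor gene Axl at -0.28 ± 0.09 (adjusted p = 0.786) and Map2k1 at -0.14 ± 0.06 (adjusted p = 0.852). None of them passed the threshold.

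Map2k1 led GEM/anti-CD40 against GEM, with 11.49, 11.49, 11.45 and 11.52 in GEM/anti-CD40 tumors and 11.25, 11.26, 11.12 and 11.11 in GEM tumors (difference 0.30 ± 0.06, adjusted p = 0.197). Every GEM/anti-CD40 tumor was above every GEM tumor, though Map2k1 was picked by its p. Of the 60 list genes, 6 lay wholly above and 4 wholly below GEM tumors, where 6.16% of all probe sets had no overlap. The JNK and p38 phosphatase gene Dusp10 differed by 0.49 ± 0.11 (adjusted p = 0.212), Fgfr3 by -0.46 ± 0.14 (adjusted p = 0.286) and Met by -0.16 ± 0.05 (adjusted p = 0.328). In GEM/anti-CD40 against anti-CD40 tumors the genes with the smallest p were Grb2, the adaptor between receptor and SOS, at 0.18 ± 0.08, the protease gene Mmp9 at 0.56 ± 0.24, the ligand gene Epgn at -0.26 ± 0.10 and Emp1 at -0.14 ± 0.06 (adjusted p = 0.937 each). In the interaction they were Dusp10 at 0.54 ± 0.20, Axl at 0.43 ± 0.16, Epgn at -0.30 ± 0.13 and Lrig1 at -0.29 ± 0.13 (adjusted p = 0.890 each), the last being -0.18 without anti-CD40 replicate 3.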

How the data were processed

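RNA of snap-frozen tumors was hybridised to 16 Affymetrix mouse arrays, described as 1 array a tumor. RMA was run by the authors and left log2 intensities, deposited with 2 decimals for each probe set. Not given in the sources used here are the software version and which arrays were normalized together. The table has 45101 probe sets. Without its 64 array controls, 45037 were tested, with no filter. Probe sets were named through the platform annotation, updated by a RefSeq table (GRCm38.p6): 34945 had 1 symbol, 932 several, and 9160 are unnamed here.

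Each pair of groups was fitted on its 8 arrays with limma 3.58.1 (R 4.3.3), moderated variances, two-sided, with Benjamini-Hochberg adjustment over the 45037 probe sets, and the interaction on all 16 arrays. Errors after a difference are limma's SE. Exact permutation tests used all 70 splits of 4 against 4. Correlations used 100000 permutations, within groups for deviations from group means, in Python 3.11.15 with numpy 2.4.6. The fits and correlations were tested on simulated data. The genes, lists and rules for naming were chosen with earlier results of these data known. From each comparison the pathway genes past the threshold are named or, with none, those with the smallest p, up to 2 in each direction. Alternatives were 1 fit of all arrays, dim probe sets left out, another variance prior, array weights, 75th percentile scaling, quantile normalization, other representatives of a gene, a replicate block, GEM replicates 3 and 4 averaged, 3 arrays with skin or muscle genes left out, and each array left out, which for the correlations and the named pathway genes was chosen after seeing the data. Precision is limited by 4 arrays a group. Some details of the tumor line's genotype are not reported here.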

Additional observations from a re-analysis of the deposited data

Results flagged for a closer look

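In 4 of the 36 groups of 4 arrays (9 genes in 4 treatments) 1 array stood apart, its gap to the nearest other array taking up more of the range than Dixon's 95% limit for 4 values allows. Chance flags about 1 in 20 groups. Spry2 was at 9.23 in anti-CD40 replicate 3, against 8.58 to 8.60 in the other anti-CD40 tumors. Dusp6 was at 10.91 in control replicate 3, against 11.21 to 11.23 in the other controls. Ereg was at 7.87 in control replicate 4, against 8.21 to 8.23 in the others. Spry4 was at 6.70 in control replicate 3, against 6.85 to 6.88 in the others.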

How the results depend on the processing

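No gene of the set passed an adjusted p of 0.05 in limma under any alternative, and the 5 exact permutation p of 0.0286 are unadjusted. In GEM/anti-CD40 against control 8 probe sets passed, and 44 did with all arrays in one fit, 13 with a trended and robust prior, 0 with the replicate number as a block and 2 without the 3 arrays with skin or muscle genes. The block changed no other call. Deviations of same-numbered tumors correlated at 0.04 to 0.23 in that comparison, 3 of the 4 numbers above 0.1, and at -0.27 to 0.27 over the 5 comparisons, and nothing in the labels says that a number marks a shared batch or litter. Without those 3 arrays 3 probe sets passed in anti-CD40 against control, 8 in GEM against control and 1 in GEM/anti-CD40 against GEM, each 0 in the fits reported. In GEM against control 1 passed with dim probe sets left out, 1 with array weights, 4 with the trended prior and 6 with GEM replicates 3 and 4 averaged. With single arrays left out, the counts were 0 (without GEM/anti-CD40 replicate 2) to 11 (without GEM/anti-CD40 replicate 3), 0 to 2 (without control replicate 1), 0 to 8 (without control replicate 2) and 0 to 1 in these 4 comparisons. For gene pairs the count was 0 to 1, with 1 only when anti-CD40 replicate 3 was left out.

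Without the 3 arrays the median over the set was -0.19 in GEM/anti-CD40 against anti-CD40 and -0.23 in the interaction. With single arrays left out they lay between -0.15 and 0.055 and between -0.16 and -0.03, both highest without anti-CD40 replicate 3. The cause of these changes was not tested.

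Signs turned only for small differences. Without the 3 arrays, Etv4 was 0.0133 in GEM/anti-CD40 against control, 0.10 in anti-CD40 against control and -0.0867 in GEM/anti-CD40 against anti-CD40, Spry2 was 0.0133 in anti-CD40 against control and Etv5 0.00667 in the interaction. With the mean of all probe sets, Spry2 was 0.01 in anti-CD40 against control, Spry4 -0.00875 in GEM against control and Etv5 0.0117 in the interaction. Spry2 in GEM against control was -0.0025 with 75th percentile scaling and -0.025 with GEM replicates 3 and 4 averaged. Etv4 in GEM/anti-CD40 against anti-CD40 was -0.0075 with that scaling and -0.00867 with quantile normalization, and the interaction of Dusp6 was 0.00544 with array weights.

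With single arrays left out, GEM/anti-CD40 against control ranged from -0.115 to 0.055 for Etv4 and -0.0983 to 0.015 for Etv5. Anti-CD40 against control ranged from -0.19 to 0.0467 for Spry2, -0.13 to 0.04 for Etv4 and -0.0758 to 0.00417 for Phlda1. GEM against control ranged from -0.0783 to 0.102 for Spry2 and -0.075 to 0.005 for Spred1. GEM/anti-CD40 against GEM ranged from -0.00167 to 0.229 for Dusp4 and -0.0175 to 0.146 for Ereg. GEM/anti-CD40 against anti-CD40 ranged from -0.0767 to 0.137 for Dusp4, -0.16 to 0.0925 for Spry2, -0.045 to 0.075 for Etv4 and -0.198 to 0.106 for Ereg. The interaction ranged from -0.237 to 0.0108 for Dusp4, -0.114 to 0.0517 for Dusp6, -0.185 to 0.0675 for Spry2, -0.165 to 0.005 for Etv4 and -0.0825 to 0.0308 for Etv5. With 4 arrays a group, none of the differences of the set was told from 0 in limma after adjustment.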
